A study of Mus musculus with 193 samples.

Results

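The 4 alpha-arrestin genes Arrdc1, Arrdc2, Arrdc3 and Arrdc4 and their relative Txnip were followed across 193 single mouse testis cells. The 5 were picked by name from the 19557 genes of the deposited table, and each has a row in it. The choice was made with differences between groups already known, above all those of Arrdc4 and Arrdc3, so the values below are a description and carry no test. The study profiled Id4-eGFP positive cells, sorted by flow cytometry from digested testes, to compare Rhox10 knockout with wild type and postnatal day 7 with postnatal day 3. Id4-eGFP is a green fluorescent reporter of a gene active in spermatogonial stem cells, and Rhox10 is a homeobox gene of the X-linked Rhox cluster. No drug or other treatment is named in the labels. The 69 cells labelled Rhox10 knockout (KO) came from postnatal day 3 (P3), 53 wild-type (WT) cells came from postnatal day 7 (P7), and 71 WT cells came from P3.

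Cell titles divide the groups further into lettered sets whose meaning is not stated. Sets A, B and C of the cells labelled KO hold 21, 12 and 36 cells. Sets A and B hold 12 and 41 cells at WT P7, and 16 and 55 cells at WT P3. The labels name no animal and do not say which stretch of Rhox10 was deleted, so each group counts as 1 sample and no p-value was computed. Rhox10 RNA was not uniformly low in the cells labelled KO: its mean level, as log2(RPM + 1), was 2.48, 2.62 and 0.83 in their sets A, B and C, 1.53 and 1.52 in WT P7 A and B, and 1.78 and 1.49 in WT P3 A and B. For this reason the group is called by its label throughout.

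The deposited values behave as RPM, in which the reads of each cell are scaled to a total of 1000000. Reads on genes ranged from 25424 to 1373776 per cell, with medians of 608841 in cells labelled KO, 507865 in WT P7 cells and 514921 in WT P3 cells. Every one of the 193 cells had the germ cell RNA Ddx4 or Dazl above 1 RPM. For the germ cell list of 6 genes, labelled KO set A had the lowest single cell and the lowest mean of log2(RPM + 1). Its lowest cell had a summed level of 16.4 RPM, against at least 514 RPM in every cell of the other sets. The list's mean level was 5.79 in set A, 7.08 and 6.98 in labelled KO sets B and C, 7.04 and 6.93 in WT P7 A and B, and 6.21 and 6.32 in WT P3 A and B. By median summed level set A was not lowest, with 1220 RPM against 1040 and 1033 RPM in WT P3 A and B. Zbtb16, a factor of undifferentiated spermatogonia, passed 1 RPM in 5 of 21 cells of labelled KO set A, all cells of labelled KO sets B and C, 52 of 53 WT P7 cells and 70 of 71 WT P3 cells. RNA of the 7 Sertoli cell markers was also present in part of the cells. Their summed levels reached 1735, 5.55 and 25.8 RPM in labelled KO sets A, B and C. The highest sums were 0 and 9.47 RPM in WT P7 A and B, and 44.8 and 588 RPM in WT P3 A and B. Mean sums were 119, 2.36 and 4.0 RPM in labelled KO sets A, B and C, and 13.5 and 29.9 RPM in WT P3 A and B. Among these markers, Clu passed 1 RPM in 55 of 193 cells and in 12 of the 21 cells of labelled KO set A. In WT P7 cells Amh, Amhr2 and Cldn11 had no reads. Summed levels of the marker lists for erythroid cells, leukocytes, endothelium, Leydig cells and myoid or stromal cells stayed at or below 87.2 RPM in every cell. The highest was the endothelial list in a WT P7 cell. Labelled KO set A had the highest mean sum of any set for the endothelial (15.8 RPM), myoid or stromal (13.1 RPM), erythroid (1.7 RPM) and leukocyte (1.5 RPM) lists. For the Leydig list WT P7 A was highest (3.89 RPM). Only 1 of 3 erythroid, 3 of 5 Leydig and 3 of 4 leukocyte markers have a row, which limits what low sums of these lists can show.

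Alpha-arrestins share the arrestin fold with the beta-arrestins. Their C-terminal PPxY motifs bind ubiquitin ligases of the NEDD4 family, which the arrestins bring to proteins of the plasma membrane and endosomes, so that this cargo is ubiquitinated and sorted. Txnip has the same fold and an added role: it binds and inhibits thioredoxin, and it promotes the internalisation of glucose transporters. Txnip and Arrdc4 are known targets of MondoA and ChREBP, glucose-sensing transcription factors that act with Mlx, whereas FOXO factors and glucocorticoids are known to act on Txnip and on other members in several tissues.

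In the mm10 annotation (GRCm38, GENCODE M21) the 5 genes lie on 5 chromosomes. Txnip (ENSMUSG00000038393.14) is at chr3:96557957-96561883 on the plus strand with 3123 exonic bases, and Arrdc4 (ENSMUSG00000042659.15) at chr7:68736995-68749241 on the minus strand with 4039. Arrdc3 (ENSMUSG00000074794.10) is at chr13:80883384-80896042 on the plus strand with 6266 exonic bases. Arrdc1 (ENSMUSG00000026972.15) is at chr2:24925352-24935252 on the minus strand with 2510, and Arrdc2 (ENSMUSG00000002910.11) at chr8:70835129-70839720 on the minus strand with 3232.

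The promoters of the most abundant member and of the 2 members whose RNA differed most between groups are shown, also because Txnip and Arrdc4 are textbook targets of the same regulators. Each is the 250 bases before the RefSeq start site (GRCm38.p6), read 5′ to 3′ on the gene's own strand, at chr3:96557707-96557956 for Txnip, chr7:68749239-68749488 for Arrdc4 and chr13:80883134-80883383 for Arrdc3. Capitals mark matches to 4 motifs, searched on both strands: the E box CACGTG, the carbohydrate response element pattern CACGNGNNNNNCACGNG, the FOXO site GTAAACA and the CCAAT box (ATTGG on the other strand). An E box can lie inside the longer pattern, but no matches overlap in these windows.
Txnip: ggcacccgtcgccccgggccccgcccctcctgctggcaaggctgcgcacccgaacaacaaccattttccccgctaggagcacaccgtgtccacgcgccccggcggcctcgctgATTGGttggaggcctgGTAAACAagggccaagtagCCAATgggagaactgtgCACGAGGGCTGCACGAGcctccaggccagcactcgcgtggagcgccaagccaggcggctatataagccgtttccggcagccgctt
Arrdc4: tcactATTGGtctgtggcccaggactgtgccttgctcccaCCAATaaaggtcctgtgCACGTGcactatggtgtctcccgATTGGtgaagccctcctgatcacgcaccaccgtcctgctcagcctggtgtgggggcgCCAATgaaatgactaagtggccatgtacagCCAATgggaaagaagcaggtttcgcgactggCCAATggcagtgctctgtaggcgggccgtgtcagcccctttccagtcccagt
Arrdc3: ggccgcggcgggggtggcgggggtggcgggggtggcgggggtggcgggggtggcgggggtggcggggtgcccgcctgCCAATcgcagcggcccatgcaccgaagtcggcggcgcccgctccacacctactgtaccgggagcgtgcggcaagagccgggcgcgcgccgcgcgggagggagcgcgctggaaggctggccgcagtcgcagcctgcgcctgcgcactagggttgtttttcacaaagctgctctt

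The Txnip window held the carbohydrate response element pattern, as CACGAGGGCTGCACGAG, from base -85 to base -69 before the start site. That pattern occurs in 15 of 32851 mouse promoter windows of this length, or 0.0457%. The same window held a FOXO site from -121 to -115, a motif found in 3.17% of windows, and 2 CCAAT boxes. In the Arrdc4 window there was an E box from -193 to -188, which 6.02% of windows have, and 6 CCAAT boxes, but no match to the longer pattern in these letters. CCAAT boxes alone are common, being present in 33.8% of windows. The Arrdc3 window shown had 1 CCAAT box and no other match, and of the 2 further RefSeq windows of Arrdc3, 1 had a CCAAT box. Arrdc2 had 3 CCAAT boxes and Arrdc1 had no match to any of the 4 motifs. These matches describe letters only, and the data hold no measure of binding.

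Txnip was by far the most abundant member and was found in nearly every cell. Mean RPM per kilobase of exon, a scale on which genes of different length can be compared, put Txnip at 16.5 in cells labelled KO, 24.2 in WT P7 cells and 15.5 in WT P3 cells. On the same per-length scale Arrdc3 had 2.42 in cells labelled KO, 10.3 in WT P7 cells and 1.72 in WT P3 cells, and Arrdc4 had 3.40 in cells labelled KO, 1.99 in WT P7 cells and 0.392 in WT P3 cells. Arrdc1 lay between 0.811 and 1.19 and Arrdc2 between 0.218 and 1.48. Arrdc3 ranked above Arrdc4 per length in both WT groups. In the cells labelled KO the order differed by set: per length Arrdc4 had 6.84 and Arrdc3 2.16 in set A, Arrdc4 2.03 and Arrdc3 1.24 in set B, and Arrdc4 1.32 and Arrdc3 3.86 in set C. Without set A the labelled KO means were 1.68 for Arrdc4 and 2.55 for Arrdc3, so the rank of Arrdc4 above Arrdc3 rested on set A. Cell by cell, Txnip had the highest value per length of the 5 in 15 of 21, 11 of 12 and 31 of 36 cells of labelled KO sets A, B and C, in 7 of 12 and 37 of 41 cells of WT P7 A and B, and in 16 of 16 and 50 of 55 cells of WT P3 A and B. Arrdc4 led in the other 6 cells of labelled KO set A. Arrdc3 led in 3 cells of labelled KO set C, in 4 and 2 cells of WT P7 A and B, and in 5 cells of WT P3 B. Another family member, Arrdc5, passed 1 RPM in only 5 of 193 cells.

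**Figure D1:**
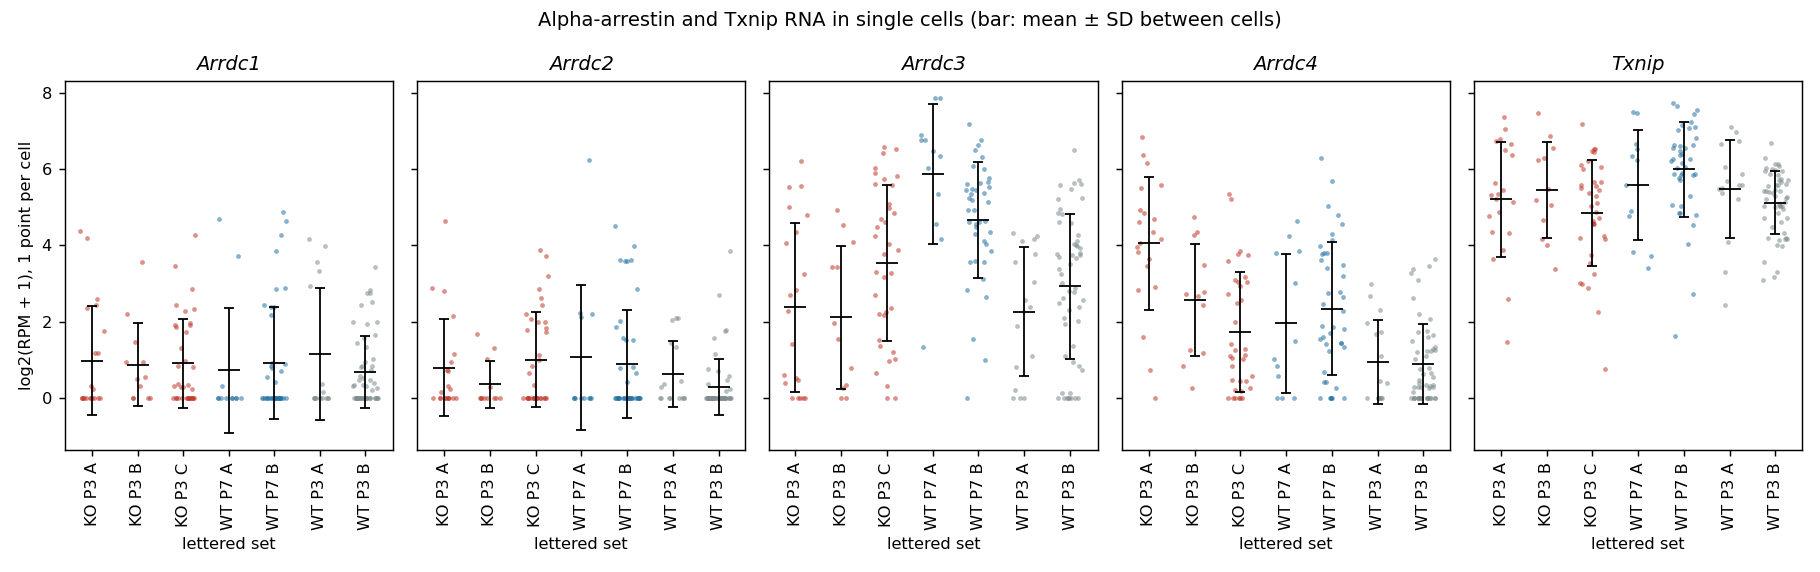
Level of each of the 5 genes in every cell, as log2(RPM + 1) on the vertical axis, by lettered set of labelled KO P3, WT P7 and WT P3 cells; bars are the mean ± SD between cells. Arrdc4 is highest in labelled KO set A (mean 4.05) and lowest in the WT P3 sets (0.96 and 0.89), Arrdc3 is highest in the WT P7 sets (5.87 and 4.67), and Txnip stays between 4.85 and 5.99 in all 7 sets.

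Arrdc4, an adaptor linked to glucose handling and to the release of vesicles, was the member that differed most between cells labelled KO and WT P3 cells. In cells labelled KO it ranged from 0 to 114 RPM with a median of 5.62 RPM, and in WT P7 cells from 0 to 76.7 RPM with a median of 2.63 RPM. In WT P3 cells it ranged from 0 to 11.4 RPM with a median of 0.327 RPM. The groups overlapped, since each had cells with no Arrdc4 read, but they differed at the high end. There 26 of 69 cells labelled KO and 17 of 53 WT P7 cells exceeded 10 RPM, against 1 of 71 WT P3 cells. The cells labelled KO above 10 RPM were 16 of 21 in set A, 4 of 12 in set B and 6 of 36 in set C. More than 1 RPM was found in 73.9% of cells labelled KO (exact Clopper-Pearson 95% interval 61.9 to 83.8%), 71.7% of WT P7 cells (57.6 to 83.2%) and 39.4% of WT P3 cells (28 to 51.8%). These intervals cover counting error only, and reads carried no molecular identifiers. By set, the share above 1 RPM was 90.5, 83.3 and 61.1% in labelled KO sets A, B and C. With each cell thinned to 100000 reads on genes, which leaves out 5 shallower WT P3 cells, at least 1 read was left in 69.6% of cells labelled KO, 69.8% of WT P7 cells and 45.5% of WT P3 cells.

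The lettered sets of the cells labelled KO were not alike for Arrdc4. Its median was 17.1 RPM in set A, 5.53 RPM in set B and 1.29 RPM in set C, and the mean of log2(RPM + 1) with its SD between cells was 4.05 ± 1.75, 2.58 ± 1.47 and 1.73 ± 1.57 (n = 21, 12 and 36). WT P7 sets A and B had 1.96 ± 1.82 and 2.34 ± 1.74 (n = 12 and 41). The corresponding WT P3 sets had 0.96 ± 1.10 and 0.89 ± 1.05 (n = 16 and 55). In order of level, labelled KO set A came first with a gap of 1.47 to labelled KO set B, the P7 sets and labelled KO set C followed, and the WT P3 sets came last. From labelled KO set B downwards, neighbours in that order differed by less than the SD between cells of either set.

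Averaged over sets, Arrdc4 differed between labelled KO P3 and WT P3 by 1.87 on the log2(RPM + 1) scale, with 0.77 to 3.17 over the 6 pairs of sets. It was the largest difference among the 7892 genes whose mean level in the comparison reached 1, and it was a reason for choosing the gene. Mean levels were 13.7 RPM in cells labelled KO and 1.58 RPM in WT P3 cells, a ratio of 8.66. Labelled KO set A decided much of the size: without it the difference was 1.24. With a pseudocount of 10 in place of 1, which damps low values, it was 0.74, below the size used for a call. Within set A, Arrdc4 was lower in cells with more Clu RNA (Pearson r = -0.64 over 21 cells), and without all cells above 1 RPM of Clu the difference was 2.22. Set A is also the set in which most cells did not pass 1 RPM of Zbtb16. In it 8 of 21 cells had no Zbtb16 read. Within set A Arrdc4 and Zbtb16 had r = -0.28, and the part of low Zbtb16 in the Arrdc4 level was not tested.

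The other members showed no such offset between labelled KO P3 and WT P3 cells. Arrdc3 differed by 0.082 (pairs -0.81 to 1.27), Txnip by -0.13 (pairs -0.63 to 0.33), Arrdc2 by 0.26 (pairs -0.27 to 0.72) and Arrdc1 by 0.00016 (pairs -0.28 to 0.29), each with pairs of both signs. Of the 3 members that passed the level minimum of 1, Arrdc4, Arrdc3 and Txnip, 1 met the call rule, which asks for a size of 1 or more and a sign shared by all pairs. Over all 7892 genes, 1.08% were called higher and 0.583% lower by that rule, 16.8% were higher and 5.41% lower in every pair whatever their size, and nothing is read from the members' count, since they were chosen on this contrast. After cells were rescaled to the 3848 genes detected in at least 90% of cells, the shares were 0.550% higher and 1.10% lower, and the median of all genes moved down by 0.13. On that scale Arrdc4 differed by 1.89, Arrdc3 by -0.049 and Txnip by -0.30 (pairs -0.92 to 0.19). Rescaled to reads on genes, where the median of all genes moved down by 0.19, Txnip differed by -0.39 (pairs -0.87 to -0.062). The mixed signs of its pairs thus depended on the scale.

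Arrdc3, known from work on body weight in mice, was the member that differed most between the ages in WT cells. In WT P7 cells it ranged from 0 to 232 RPM with a median of 37.1 RPM. Cells labelled KO had 0 to 94.2 RPM with a median of 8.10 RPM, and WT P3 cells had 0 to 89.2 RPM with a median of 7.03 RPM. Single cells of the groups overlapped, but almost all P7 cells had Arrdc3 RNA: 98.1% exceeded 1 RPM (95% interval 89.9 to 99.95%), as did 72.5% of cells labelled KO (60.4 to 82.5%) and 74.6% of WT P3 cells (62.9 to 84.2%). At 100000 reads per cell the shares with at least 1 read were 94.3% in WT P7, 75.4% in labelled KO P3 and 80.3% in WT P3.

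By set, the mean level of Arrdc3 was 5.87 ± 1.82 and 4.67 ± 1.52 in WT P7 sets A and B. Cells labelled KO had 2.38 ± 2.22, 2.11 ± 1.88 and 3.54 ± 2.04 in sets A, B and C, and WT P3 cells had 2.27 ± 1.69 in set A and 2.93 ± 1.90 in set B. Both P7 sets stood above every P3 set, with a gap of 1.13 between the lower P7 set and labelled KO set C, the highest at P3, although each gap between neighbours was smaller than their SD between cells. Among the cells labelled KO, set C was highest in Arrdc3 and lowest in Arrdc4, whereas set A was highest in Arrdc4. The difference between WT P7 and WT P3 was 2.67 (4 pairs, 1.75 to 3.60), the second highest of 7669 genes, with means of 64.7 RPM in WT P7 and 10.8 RPM in WT P3 and a ratio of 6.0.

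Arrdc4 was also higher in WT P7 than in WT P3, by 1.23 (pairs 1.00 to 1.46), which placed it 230th of the 7669 genes. Here it passed the level minimum only through the WT P7 cells (2.15, against 0.92 in WT P3). Means were 8.02 RPM in WT P7 and 1.58 RPM in WT P3. With a pseudocount of 10 the difference of Arrdc4 was 0.46, below the call size, and that of Arrdc3 was 1.6. The labelled KO and P7 comparisons use the same WT P3 cells, so the low Arrdc4 level of those cells enters both. Arrdc3 and Arrdc4 met the call rule and Txnip, the third member above the level minimum, did not. Nothing is read from this count either, since the members were chosen with these differences known. Over all 7669 genes, 7.02% were called higher and 2.88% lower between the ages, and 36.5% were higher and 15.6% lower in every pair. Rescaled to stably detected genes the split turned to 1.71% higher and 6.72% lower, and the median of all genes moved down by 0.31. Arrdc3 and Arrdc4 kept their sign in every pair on that scale, with differences of 2.28 and 1.06.

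**Figure D2:**
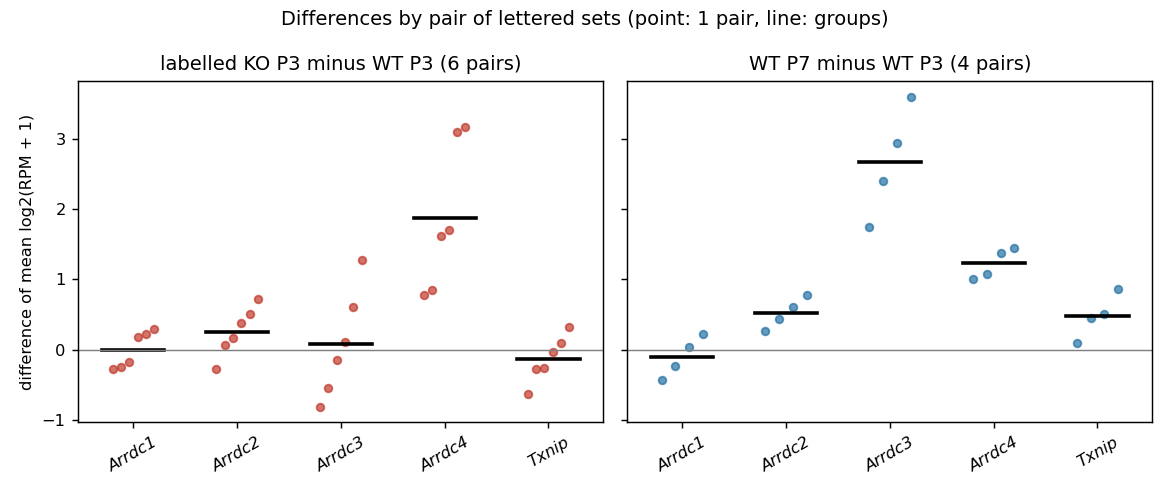
Difference of mean log2(RPM + 1) for each gene, labelled KO P3 minus WT P3 on the left and WT P7 minus WT P3 on the right; each point is 1 pair of lettered sets and the line is the group difference. For Arrdc4 all 6 pairs on the left lie between 0.77 and 3.17, and for Arrdc3 all 4 pairs on the right lie between 1.75 and 3.60, while Arrdc1 has pairs on both sides of 0 in both panels.

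Txnip, the inhibitor of thioredoxin, differed little between groups beside its spread between cells. Cells labelled KO had 0.696 to 177 RPM with a median of 36.3 RPM, WT P7 cells 2.07 to 209.5 RPM with a median of 73.3 RPM, and WT P3 cells 4.41 to 135 RPM with a median of 40.8 RPM. It passed 1 RPM in 68 of 69 cells labelled KO, all 53 WT P7 cells and all 71 WT P3 cells. The mean level by set was 5.21 ± 1.50, 5.45 ± 1.26 and 4.85 ± 1.39 in labelled KO sets A, B and C, 5.58 ± 1.43 and 5.99 ± 1.25 in WT P7 A and B, and 5.48 ± 1.27 and 5.12 ± 0.83 in WT P3 A and B. Neighbouring sets in this order of level were at most 0.41 apart, less than the SD between cells of any set. The difference of WT P7 from WT P3 was 0.48 (pairs 0.097 to 0.87) on the deposited scale, 0.027 (pairs -0.28 to 0.34) after rescaling to stably detected genes and -0.040 after thinning. The last 2 values are small beside the range over pairs.

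Txnip is overlapped by an antisense gene, Gm15441, at chr3:96555765-96566801 on the minus strand. Of its 1676 exonic bases, 606 coincide with exonic bases of Txnip. Gm15441 exceeded 1 RPM in 182 of 193 cells, and its reads amounted to 12.2% of the Txnip reads over all cells, with 11.3% to 14.1% in the 7 sets. Across cells its level followed that of Txnip closely, with r = 0.82 after centring each set and 0.73 to 0.97 within sets. The sources do not say whether counting used strand. How reads on the 606 shared bases were assigned to Gm15441 and Txnip therefore cannot be told. A transcript opposite Arrdc3, 1700023H06Rik, shares no exonic base with it and has no row in the table. The other 3 members overlap no annotated gene.

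Arrdc2, whose cargo is less well known, was sparse. Its highest values were 23.8 RPM in cells labelled KO, 74.5 RPM in WT P7 cells and 13.5 RPM in WT P3 cells, and the median was 0 RPM in each group. More than 1 RPM was found in 33.3% of cells labelled KO (22.4 to 45.7%), 30.2% of WT P7 cells (18.3 to 44.3%) and 15.5% of WT P3 cells (8.0 to 26%). Mean levels by set were 0.80, 0.36 and 1.01 in labelled KO sets A, B and C, 1.07 and 0.90 in WT P7 A and B, and 0.63 and 0.29 in WT P3 A and B, with SDs between cells of 0.62 to 1.90. Between WT P7 and WT P3 the difference was 0.52 (pairs 0.27 to 0.78), all 4 pairs being positive, but Arrdc2 lay under the level minimum and was not eligible for a call. In mean RPM 1 cell weighed heavily: WT P7 had 4.79 RPM, or 1.73 RPM without the cell of 74.5 RPM, against 0.705 RPM in WT P3.

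Arrdc1, which recruits Tsg101 of the ESCRT machinery and drives budding of small vesicles from the plasma membrane, was sparse and even. It exceeded 1 RPM in 33.3% of cells labelled KO, 22.6% of WT P7 cells and 26.8% of WT P3 cells, with maxima of 19.9, 28.3 and 16.9 RPM in those groups. Mean levels by set were 0.98, 0.88 and 0.91 in labelled KO sets A, B and C, 0.73 and 0.92 in WT P7 A and B, and 1.16 and 0.69 in WT P3 A and B. The WT P3 sets were the highest and the lowest of the 7, and gaps between neighbours were at most 0.17, under the SDs of 0.94 to 1.72 between cells. The WT P7 minus WT P3 difference was -0.10 (pairs -0.43 to 0.23).

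Cells of 1 set differed more in Arrdc3 than in most genes of its level. The SD between cells within sets was 1.87 for Arrdc3, and 98.6% of 735 genes of like mean level had a smaller one. Txnip had a within-set SD of 1.22, larger than in 92.5% of 228 like genes. Arrdc4 was not unusual in this respect, its SD of 1.48 being larger than in 44.7% of 1163 like genes. For Arrdc1 and Arrdc2 the shares were 71.4% and 67.9%. Depth moved little with these levels: the within-set correlation with the log2 of reads on genes was 0.22 for Txnip, 0.16 for Arrdc1, 0.11 for Arrdc3, 0.050 for Arrdc4 and 0.039 for Arrdc2.

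Coexpression among the 5 genes in single cells was weak. Pearson's r of log2(RPM + 1) over the 193 cells, after centring each set, was largest for Arrdc2 with Arrdc4 at 0.17, next for Arrdc3 with Txnip at 0.15 and lowest for Arrdc2 with Arrdc3 at -0.12. Arrdc4 and Txnip, which share a known regulator, had r = 0.014. Cells of a set share a title letter of unstated meaning and differ in depth, and in sparse counts such weak values are no finding. Within single sets r for Arrdc4 with Txnip ran from -0.20 to 0.57. It was 0.44 in labelled KO set A (21 cells) and 0.57 in WT P3 set A (16 cells) and negative in the other 5 sets. In labelled KO set A both genes were also lower where Clu was higher (r = -0.64 for Arrdc4 and -0.66 for Txnip), and the part of Clu in their correlation was not tested. Arrdc3 with Txnip was positive in 6 of 7 sets, with a range of -0.22 to 0.46, and Arrdc3 with Arrdc4 had -0.020 over all cells with sets from -0.55 to 0.57.

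**Figure D3:**
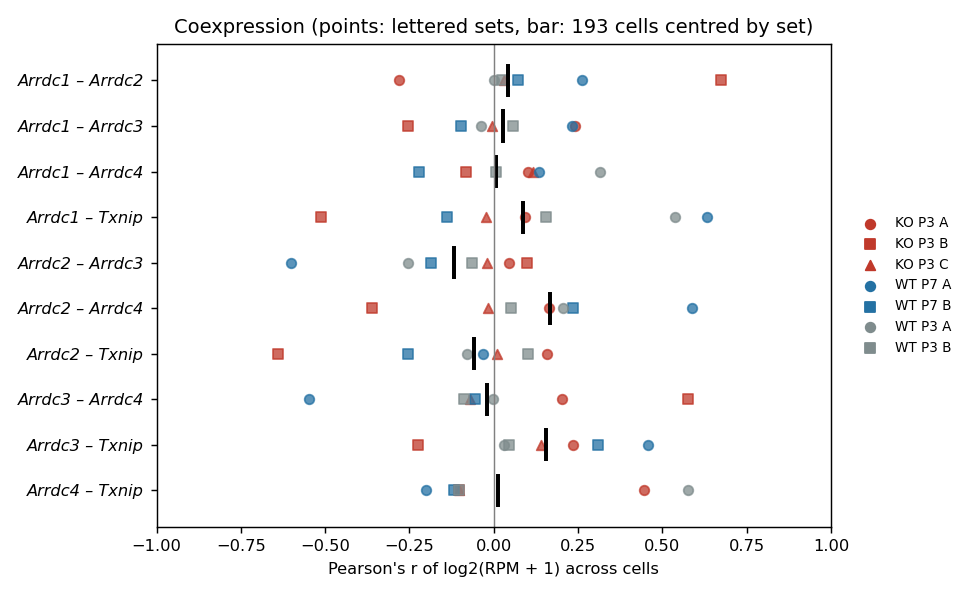
Pearson's r of log2(RPM + 1) across cells (horizontal axis, -1 to 1) for the 10 pairs of genes; points are the 7 lettered sets and the bar is the value over 193 cells centred by set. The bars lie between -0.12 and 0.17, and the points of single sets scatter widely on both sides of 0.

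Joint detection was counted at 1 RPM. Arrdc3 exceeded 1 RPM in 80.3% of the 117 cells with Arrdc4 above 1 RPM and in 80.3% of the 76 cells without. Arrdc2 exceeded 1 RPM in 30.8% of the cells with Arrdc4 and 18.4% of the cells without, and within groups the shares were 31.4% and 38.9% in labelled KO P3, 36.8% and 13.3% in WT P7, and 21.4% and 11.6% in WT P3. The order was thus not the same in every group. All 5 members together passed 1 RPM in 3 cells labelled KO, 5 WT P7 cells and 1 WT P3 cell. Txnip was the only member found in 3 cells labelled KO, 0 WT P7 cells and 8 WT P3 cells.

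**Figure D4:**
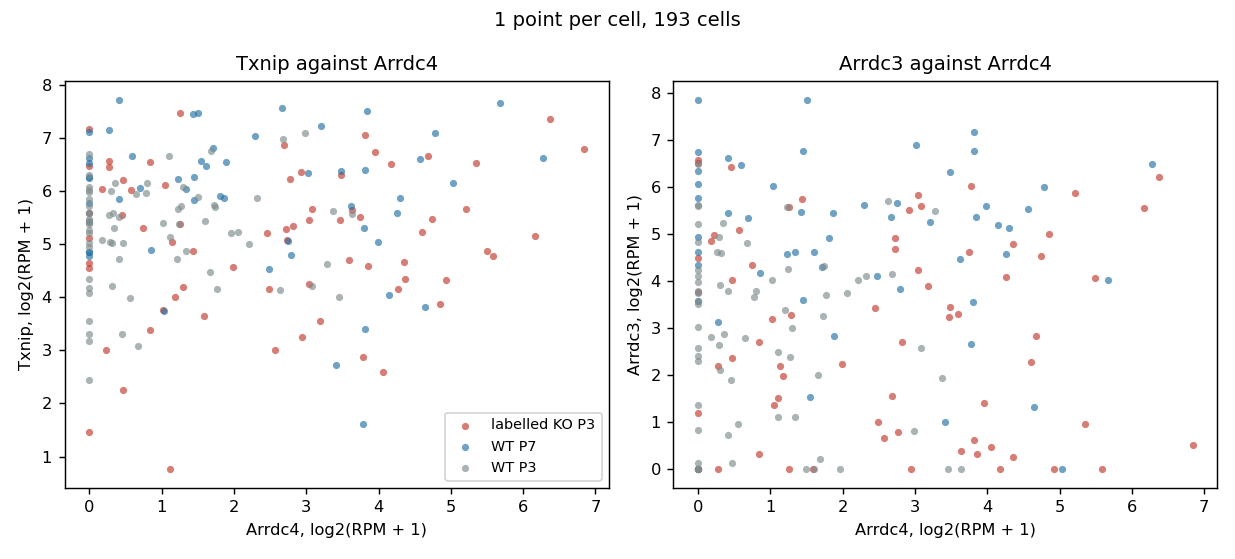
Txnip and Arrdc3 against Arrdc4 in 193 cells, all as log2(RPM + 1), coloured by labelled KO P3, WT P7 and WT P3. Cells with much Arrdc4 occur at high and low levels of Txnip (r = 0.014 within sets) and of Arrdc3 (r = -0.020).

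Each member was also set beside 4646 or 4647 named genes whose level averaged 2 or more over the 7 sets, a minimum that left out Arrdc1 and Arrdc2 themselves. Within sets over 193 cells, the gene most like Arrdc4 was Sptlc2, a subunit of serine palmitoyltransferase (r = 0.33, positive in 7 of 7 sets, 0.19 to 0.55), followed by Zswim7, Susd4, Gnb1 and Cpsf1. Arrdc3 was most like Sirt1, an NAD-dependent deacetylase (r = 0.29, positive in 7 of 7 sets, 0.20 to 0.40), then Mrpl2, Ncapg, Fat1 and Abt1. Txnip had Cops3, a COP9 signalosome subunit (r = 0.35), Xab2, Kdm5b, Tex19.1 and Tex14 as its nearest genes. Predicted and unnamed genes were kept out of this ranking, which leaves out Gm15441 and its r of 0.82. Arrdc1 had Dcps, a scavenger decapping enzyme (r = 0.29), Tmem57, Brcc3, Stx12 and Ik, and Arrdc2 had Hspa2 (r = 0.33), Cops8, Cpeb1, Aplf and Mrpl37. None of the 5 lists of nearest genes held Arrdc3, Arrdc4 or Txnip. Among the 4646 named genes ranked, Txnip came 131st for Arrdc3 and 2452nd for Arrdc4. From the side of Txnip, Arrdc3 came only 658th and Arrdc4 3289th. For Arrdc2, Arrdc4 came 251st of 4647.

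At the other end, the gene lowest in likeness to Txnip was Itch (r = -0.23, with sets from -0.60 to 0.097), which encodes the NEDD4-family ligase known to ubiquitinate Txnip. Zfc3h1 and Dclre1c followed. For Arrdc4 these were Ppp1r7 (r = -0.29), Slc25a5 and Ehmt1, and for Arrdc3 Rab9 (r = -0.27) and Kdm6b. Arrdc1 had Exosc2 (r = -0.24), Pphln1 and Btg1 lowest, and Arrdc2 had Lin54 (r = -0.24), Tmem57 and Prmt3. All these values come from the ends of a distribution over all those genes whose SD was 0.074 to 0.089, and they are a description of these cells.

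The other genes of the pathway were taken as 8 lists of 62 genes in all, of which 43 passed the level minimum in each comparison. Between labelled KO P3 and WT P3, 0 of 43 met the call rule in either direction, beside 1.08% higher and 0.583% lower among all genes, shares at which 0 of 43 is no result about these lists. The regulators Mlxip (MondoA) and Mlx differed by -0.090 (pairs -0.54 to 0.38) and 0.11 (pairs -0.84 to 0.93), and Mlxipl (ChREBP) was below the minimum. Prkab1, a subunit of the energy sensor AMPK, reached the size with -1.16 but had pairs from -2.59 to 0.38. Among genes below that size, the NEDD4-family adaptor Ndfip1 had 0.91 (pairs 0.088 to 1.68) and the hexokinase gene Hk2 had -0.70 (pairs -1.17 to -0.22). List medians ran from -0.33 for the FOXO and glucocorticoid list to 0.63 for the cargo list with 3 measured genes, against 0.13 for all genes.

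Between WT P7 and WT P3, 8 of the 43 genes (18.6%) were called higher and 3 (6.98%) lower on the deposited scale, beside 7.02% and 2.88% of all genes tested. The higher ones were Tsc22d3 (1.80), a glucocorticoid and FOXO target, the cargo gene Igf1r (1.33), Prkag1 (1.33), Ndfip1 (1.17), Foxo1 (1.12), mitochondrial thioredoxin Txn2 (1.10), the ligase gene Smurf1 (1.08) and the clock gene Per1 (1.06). The lower ones were Prkab1 (-1.16), the ligase gene Nedd4l (-1.15) and the glucocorticoid target Fkbp5 (-1.15). After rescaling to stably detected genes beside 1.71% higher and 6.72% lower among all genes, 1 list gene was called higher, Tsc22d3 (1.36), and 7 lower: Prkab1, Fkbp5, Hk2, Nedd4l, Nr3c1, Sesn1 and Chmp4b. Calls of higher list genes at P7 therefore rested largely on the scale, apart from that of Tsc22d3. Arrdc3 and Arrdc4 were called on both scales, but they were chosen with these differences known. No contrast with the lists is read from their calls.

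No measured cargo or thioredoxin gene reached the call size between labelled KO P3 and WT P3. The glucose transporter gene Slc2a1, whose product Txnip removes from the surface, differed by 0.87 (pairs -0.14 to 2.28) between labelled KO P3 and WT P3 and by 0.71 (pairs 0.35 to 1.06) between WT P7 and WT P3. Of the thioredoxin list, Txn1 differed by 0.36 (pairs -0.79 to 1.47) in labelled KO P3 and by 0.18 (pairs -0.92 to 1.29) in WT P7. At P7 the median of the MondoA list was -0.16, of the thioredoxin list 0.39, of the other arrestin-fold genes 0.29, of the NEDD4-family list 0.21, of the ESCRT list -0.057, of the cargo list 0.71, of the FOXO and glucocorticoid list 0.86 and of the AMPK list -0.10, against 0.17 for all genes. Rescaled to stably detected genes, the median of all genes was -0.15. On that scale the MondoA list was at -0.43, the ESCRT list at -0.46 and the AMPK list at -0.29, below all genes. The NEDD4-family list at -0.12 was close to all genes, and the other 4 medians were above 0.

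**Figure D5:**
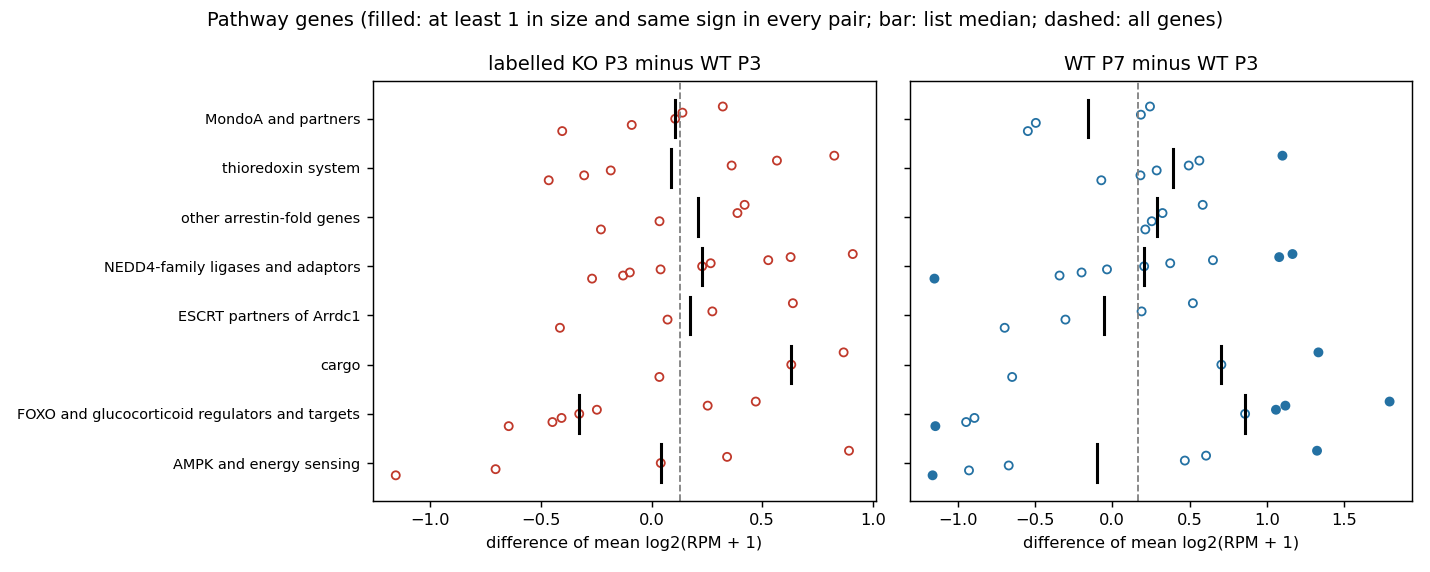
Differences of mean log2(RPM + 1) for the measured genes of 8 pathway lists, labelled KO P3 minus WT P3 on the left and WT P7 minus WT P3 on the right; filled points met the call rule, bars are list medians and the dashed line is the median of all genes (0.13 and 0.17). No point is filled on the left, and 8 points are filled to the right and 3 to the left of 0 in the P7 panel.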

How the data were processed

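Per the labels' protocols, single cells were captured on a Fluidigm C1 chip, ERCC RNA went into the lysis buffer, cDNA was made with the SMARTer kit, and Nextera XT libraries followed. STAR 2.3.0, HTSeq 0.6.1 and mm10 are listed, with no roles, in the submitters' processing notes. Which annotation and strand setting were used, and what became of multi-mapping reads, is not given in the sources used here.

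Values came as 1 table deposited by the authors, named as TPM, whose values behave as RPM: within a cell they are whole multiples of 1 step for every gene (tolerance 0.001 RPM, 99.99% of values in the cell with the lowest share). Table rows sum to 8.13% to 23.0% of the total the values are relative to. Reads were recovered by dividing by the step. A count test on them was not run, since each group is 1 sample. All 193 columns matched 1 cell each. The design had left the unit open and assumed no count model. The 84 ERCC rows and the ribosomal RNA precursor were left out.

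The members and gene lists were chosen with earlier results of these data known. For a group's level, the mean log2(RPM + 1) of each set was taken and sets were averaged without weights, a scale that understates changes of low genes. Genes whose mean level in the comparison reached 1 were eligible, and a call needs a size of 1 or more with a sign shared by all pairs of sets. Named genes are the members, Rhox10 and Id4 as label checks, the 8 lists, and per member the 5 genes of highest and 3 of lowest r among named genes whose level averaged 2 or more. Id4 averaged 5.55 RPM in cells labelled KO, 7.60 RPM in WT P7 cells and 14.6 RPM in WT P3 cells. Gm15441, Clu and 1700023H06Rik were named after their values were seen, and 2 genes that the rule picks are not reported here. The measures were checked on simulated data in which sets of a group shared the same means and only well-expressed genes were changed. That check does not cover sets that differ, or genes as low as Arrdc4 in WT P3 cells. Alternatives were other pseudocounts, scalings, weightings, filters and call sizes, thinning and leaving out each set. Python 3.11.15, numpy 2.4.6, pandas 2.3.3, scipy 1.17.1 and matplotlib 3.10.9 were used. Promoters came from RefSeq (GRCm38.p6), with 1 window per gene except 3 for Arrdc3, and all 5 members matched.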

Additional observations from a re-analysis of the deposited data

How the results depend on the processing

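No called difference changed sign: the labelled KO difference of Arrdc4 and the P7 differences of Arrdc3 and Arrdc4 stayed positive under each alternative run. Of 70 recomputed labelled KO differences 67, and of 65 P7 differences 54, moved by less than the SD over pairs of sets. The SD over pairs is wide for some members, being 1.05 for labelled KO Arrdc4. Its change from 1.87 to 1.24 without labelled KO set A is within that SD, so little is read from these counts. All 120 recomputed correlations moved by less than the SD of r over the 7 single sets (0.17 to 0.39). That SD is wide for a value over all cells, so little is read from this count. Against WT P3, labelled KO Arrdc4 had 3.02 with a pseudocount of 0.1 and 0.74 with 10, and Txnip had -0.58 after thinning to 100000 reads. For WT P7 against WT P3, a pseudocount of 0.1 gave -0.42 for Arrdc1 and 2.00 for Arrdc4, and a pseudocount of 10 gave 0.22 for Arrdc2, 1.6 for Arrdc3 and 0.46 for Arrdc4. Logs of mean values gave 0.23 for Arrdc1, 1.77 for Arrdc2 and 1.80 for Arrdc4, and Txnip had 0.047 rescaled to reads on genes, 0.027 rescaled to stably detected genes and -0.040 thinned. Pseudocounts act on low values by construction, and the cause of the other shifts was not tested.

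Leaving out each set in turn, labelled KO Arrdc4 lay between 1.24 (without labelled KO set A) and 2.40, P7 Arrdc3 between 2.08 and 3.27, and P7 Arrdc4 between 1.04 and 1.42. List genes called in the labelled KO comparison numbered 6 higher and 1 lower at a call size of 0.5, with 0 to 3 higher and 0 to 2 lower without single sets. In the P7 comparison higher calls were 1 rescaled to stably detected genes, 2 with a pseudocount of 10, 15 at a size of 0.5 and 5 to 9 without single sets (5 without WT P7 set A). Lower calls were 7 rescaled, 0 with a pseudocount of 10, 7 at a size of 0.5 and 0 to 8 without single sets (0 without WT P3 set A, 8 without WT P3 set B). Leaving out cells under 100000 reads or with Clu above 1 RPM was chosen after seeing the data, and moved no member's difference by more than the SD over pairs.

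No paired analysis was possible because the numbers in the titles only name cells and each group is 1 sample. The letters A and B recur in the groups, but the labels do not say that a letter marks a shared animal, batch or day, so sets of the same letter were not paired. Arrdc1 and Arrdc2 had no read in 97 and 119 of 193 cells.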
